A study of Arabidopsis thaliana with 12 samples.

Results

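The loss of JAZ repressors in plants that also lack CDK8 was read from the comparison of the jazD cdk8-1 line with the cdk8-1 line of *Arabidopsis thaliana*. Its members are 6 of the 12 libraries of the series, 3 of each genotype, chosen by the genotype label alone and compared across all genes tested. RNA sequencing had been done on whole rosettes without roots, taken from soil-grown plants aged 25 days, and each library is a pool of about 10 plants of 1 genotype. In cdk8-1 plants the *CDK8* gene is mutated. The jazD cdk8-1 plants have the same *cdk8-1* allele and the jazD set of mutations, known to hit 10 *JAZ* genes (*JAZ1* to *JAZ7*, *JAZ9*, *JAZ10* and *JAZ13*) and not listed in the labels, so both groups lack normal *CDK8* and differ in the *JAZ* genes. The same *JAZ* mutations in plants with an intact *CDK8* gene, jazD against the wild type Col-0 (3 libraries each), served as the counterpart and share no library with the main comparison. Each mutant genotype is 1 line with 1 set of alleles.

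JAZ proteins bind transcription factors such as MYC2 and hold their target genes silent through the adaptor NINJA and TOPLESS-type corepressors. The hormone jasmonoyl-isoleucine joins JAZ proteins to the receptor COI1, which leads to their destruction and frees the transcription factors. In leaves the MYC branch serves defence against chewing insects, including glucosinolates and their activating enzymes, while a branch shared with ethylene acts through the factors EIN3 and ORA59 on antifungal defensins. CDK8 is the kinase of a detachable module of Mediator, the complex that connects transcription factors with RNA polymerase II.

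Total counts per library lay between 17583467 and 21030374, and 19059 of 33323 loci passed the filter on low counts. Levels are CPM, that is, counts as a share of the library's total, scaled by the TMM method. Changes are log2 fold changes ± an approximate standard error from 1 quasi-likelihood model in edgeR that covers the 12 libraries, with n = 3 pools per genotype. A gene is called where its Benjamini-Hochberg adjusted p over all genes tested, from edgeR, is below 0.05. The interaction is the change without CDK8 minus the change with CDK8, tested in the same fit. The libraries fell by genotype on the first pair of principal components (54.4% and 18.9% of the variance). Of the 8 root markers, *RHD6*, *EXPA7* and *EXPA18* had 0 counts in every library and *COBL9* and *IRT1* at most 2 per genotype, while *NRT2.1* had 30 counts in cdk8-1 and 68 in jazD cdk8-1, *CASP1* 4 and 11, and *ALMT1* 11 and 13. The sum of the root markers was 0.698 to 0.879 CPM in cdk8-1 and 1.17 to 1.76 in jazD cdk8-1, and its part in other values was not tested. Among the floral markers *AP1* had 0 in both groups without CDK8 and the rest at most 42 in any genotype. Transcripts of *CDK8* itself had means of 18.75 CPM in Col-0 and 20.43 in jazD, while the cdk8-1 libraries had 2.29, 2.74 and 2.64 and the jazD cdk8-1 libraries 2.73, 3.3 and 3.29. The gene was low in all 6 libraries, as labelled, and the difference between the groups without CDK8 was 0.29 ± 0.14 (adjusted p = 0.173). In these bulk samples a change in the number of cells of a type and a change in RNA per cell cannot be told apart.

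The *JAZ* genes come first, since the labels rest on them. Of the 9 mutated genes with a matching name, 8 were tested, and 7 were lower and 1 higher in jazD cdk8-1 than in cdk8-1. *JAZ6* measured 23.8, 27.7 and 26.3 CPM in cdk8-1 and 1.0, 1.24 and 1.44 in jazD cdk8-1 (−4.38 ± 0.13). *JAZ2* measured 29.6, 28.9 and 28.2 CPM against 3.5, 3.59 and 3.52 (−3.03 ± 0.10). *JAZ1* measured 5.64, 6.2 and 7.01 CPM against 2.61, 2.92 and 1.67 (−1.40 ± 0.16). The groups did not overlap at any of these genes. *JAZ5* (−2.05 ± 0.33), *JAZ3* (−0.61 ± 0.06) and *JAZ9* (−0.33 ± 0.05) fell as well, with *JAZ5* at −2.70 when jazD cdk8-1 replicate 1 was left out. *JAZ4* fell by 1.70 ± 0.55 on the log2 scale, a call that was lost without cdk8-1 replicate 2 (adjusted p = 0.152), cdk8-1 replicate 3 (0.0696), jazD cdk8-1 replicate 1 (0.103) or jazD cdk8-1 replicate 2 (0.0632). *JAZ7* had 11 counts in the 3 cdk8-1 libraries and 1 in those of jazD cdk8-1, a ratio of 11 with a counting interval of 1.61 to 476. *JAZ13* matched no name in the tables used, and no value is given for it. These values are reads anywhere along each gene and say nothing of the protein.

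*JAZ10*, a mutated gene that jasmonate induces, was the exception to the falls. It rose from 2.0, 1.86 and 2.16 CPM to 3.39, 2.97 and 2.78 (0.59 ± 0.20, adjusted p = 0.0388), and the call was lost when any 1 of these 6 libraries was left out (adjusted p from 0.0525 to 0.131). With CDK8 its rise was 2.17 ± 0.18, and the interaction was called (−1.58, adjusted p = 0.000373). Of the 3 intact genes, *JAZ12* rose from a mean of 53.6 to 69.2 CPM (0.37 ± 0.05) and *JAZ11* measured 10.49 and 10.54 (0.01 ± 0.10, adjusted p = 0.963). *JAZ8*, a repressor that resists hormone-triggered destruction, measured 0.15, 0.155 and 0.192 CPM in cdk8-1 and 0.667, 0.335 and 0.509 in jazD cdk8-1 (1.55 ± 0.54, adjusted p = 0.0402). That call was lost without any 1 cdk8-1 library, jazD cdk8-1 replicate 1 or 3, or jazD replicate 3, with adjusted p up to 0.139. In jazD *JAZ8* reached 3.09 CPM, and the interaction was −2.75 (adjusted p = 0.0235), lost without cdk8-1 replicate 2 (0.0509) or 3 (0.0803).

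Across all genes, 4570 differed between jazD cdk8-1 and cdk8-1 (24.0% of those tested), 2430 higher (12.7%) and 2140 lower (11.2%) in jazD cdk8-1. Each genotype is 1 line, so other differences between the lines cannot be told apart from the *JAZ* mutations. At least 2-fold changes were fewer, with 381 genes higher (2.0%) and 164 lower (0.86%), and 54 genes were at least 8-fold higher (0.283%) and 15 lower (0.0787%). The libraries of the groups did not overlap at 38.0% of all genes, and with CDK8 at 51.5%. With CDK8, jazD against Col-0 gave 8153 calls (42.8%), 4162 higher (21.8%) and 3991 lower (20.9%). At least 2-fold changes were called for 817 higher genes (4.29%) and 435 lower genes (2.28%). The interaction was called for 3154 genes (16.5%), 1555 of them positive (8.16%) and 1599 negative (8.39%), of which 161 (0.845%) and 292 (1.53%) were at least 2-fold. The sign is that of the difference between the changes and not of a level. An interaction called higher or lower is meant in this sense below. Positive values made up 49.3% of interaction calls on counts and 59.7% on the TPM scale with a pseudocount of 1. Among jazD calls the share of higher genes was 51.0% and 37.9%.

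The responses with and without CDK8 had many genes in common. Of the 2430 genes higher without CDK8, 1750 (72.0%) were also higher with it, and they made up 42.0% of those higher with CDK8. Of the 2140 lower genes, 1367 (63.9%) were lower in both, or 34.3% of those lower with CDK8. Of the 381 genes at least 2-fold higher without CDK8, 349 (91.6%) were called higher with it. In the other direction, 524 of the 817 genes at least 2-fold higher with CDK8 (64.1%) were also called higher without it. Of the 164 genes at least 2-fold lower without CDK8, 100 (61.0%) were called lower with it, and of the 435 at least 2-fold lower with CDK8, 208 (47.8%) were called lower without it. The interaction ran against the rise for 433 of the 817 genes (53.0%), in its direction for 6, and was not called for 378. For the 381 genes it ran against the rise for 136 (35.7%), in its direction for 22, and was not called for 223. For the 435 genes at least 2-fold lower with CDK8 it ran against the fall for 202 (46.4%), in its direction for 5, and was not called for 228. For the 164 genes it ran against the fall for 14 (8.54%), in its direction for 30, and was not called for 120. Each of these sets was chosen on 1 of the changes that make up the interaction, so the balance is a description. Over all genes tested the log2 fold changes had a Pearson r of 0.65 and a slope through the origin of 0.43 on those with CDK8, as a description over genes that share libraries and are not independent replicates. The plot of one change against the other shows this as a cloud that is flatter than the line of equal change.

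**Figure D1:**
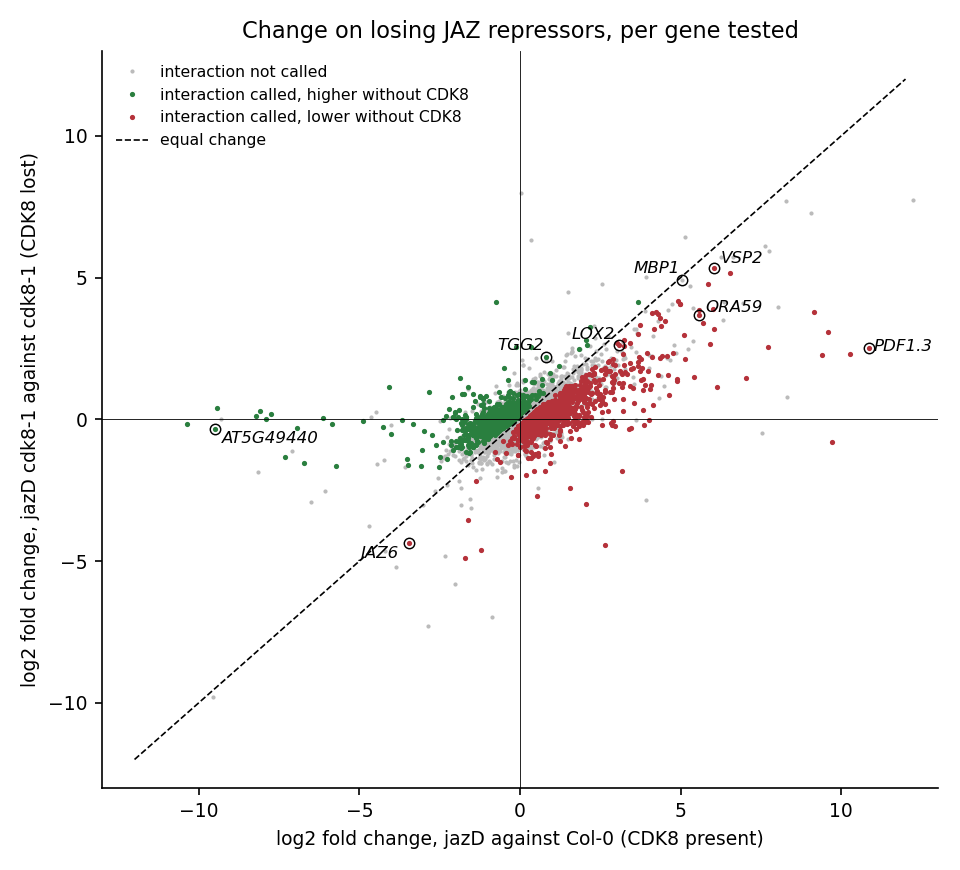
Each point is 1 gene tested; the horizontal axis is the log2 fold change in jazD against Col-0 and the vertical axis that in jazD cdk8-1 against cdk8-1, with the dashed line at equal change. *MBP1* and *VSP2* lie close to the line, *PDF1.3* far below it, and *TGG2* above it. Green marks the 1555 genes with a positive called interaction and red the 1599 with a negative one. Higher and lower in the key refer to the change and not to the level.

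The largest rises without CDK8, ranked among called genes of an average log2 CPM not under 1 whose groups did not overlap, included storage proteins, lectins and several enzymes. *VSP2*, a vegetative storage protein with acid phosphatase activity that slows insect growth, measured 5.09, 5.22 and 10.4 CPM in cdk8-1 and 267, 262 and 312 in jazD cdk8-1 (5.33 ± 0.13). The close paralog *VSP1* measured 4.14, 7.34 and 13.3 CPM against 270, 256 and 364 (5.16 ± 0.19), and reads can be shared between the pair. *MBP1*, a lectin that binds myrosinase, measured 16.6, 18.3 and 21.9 CPM against 575, 567 and 565 (4.91 ± 0.09). At all 3 genes each jazD cdk8-1 library lay far above every cdk8-1 library, though a lack of overlap was a condition of the ranking. The neighbouring lectin gene AT1G52000 rose from a mean of 30.19 to 526.4 CPM (4.12 ± 0.10), above the 399.1 CPM of jazD. *MBP2*, between them on the chromosome and chosen after its values were seen, rose from 2.93 to 27.15 CPM (3.20 ± 0.11).

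The other genes of that rank are less well known. AT3G28220, a TRAF-like protein, measured 34.8, 41.2 and 65.8 CPM in cdk8-1 and 1240, 1230 and 1380 in jazD cdk8-1 (4.76 ± 0.14). *CSLA01*, a cellulose synthase-like gene, measured 0.15, 0 and 0.432 CPM against 15.1, 12.1 and 15.6 (6.12 ± 0.29). Without cdk8-1 replicate 3, 3 counts remain in cdk8-1 against 862, a ratio of 187 with a counting interval of 63.8 to 909. AT1G15125, an S-adenosylmethionine-dependent methyltransferase, measured 3.44, 2.74 and 4.76 CPM against 65.0, 64.0 and 68.2 (4.16 ± 0.16). AT1G14120, a 2-oxoglutarate-dependent dioxygenase, rose by 4.71 ± 0.27. AT5G28810 is a gene of unknown function. It had 727 counts in jazD cdk8-1 and 3 in cdk8-1, all in replicate 3, a ratio of 241 with a counting interval of 82.2 to 1170. AT4G11310, a papain-type cysteine protease, had 80 counts in jazD cdk8-1 and 0 in cdk8-1, which is at least 26.5-fold higher with 3 counts as the floor over the group, so its place in this rank rests on a fitted change over 0 counts. The average level required for the rank was taken over all 12 libraries, and most counts of this gene were in jazD (398, with 1 in Col-0), outside this comparison. The interaction was not called for *CSLA01*, AT1G14120 or *MBP1*. For AT5G28810 it missed the threshold (adjusted p = 0.0797), and passed it without cdk8-1 replicate 1 (0.0436) or 2 (0.0497), with no filter on low counts (0.0464), and in the limma fits on TPM (at most 0.00802). For AT4G11310 it was not called on counts (−0.57, adjusted p = 0.754) and was called in the limma fits on TPM, at −1.66 with a pseudocount of 1 (adjusted p = 6.01e-06, or 5.76e-05 with no filter) and −2.04 with one of 0.1 (0.00172).

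**Figure D2:**
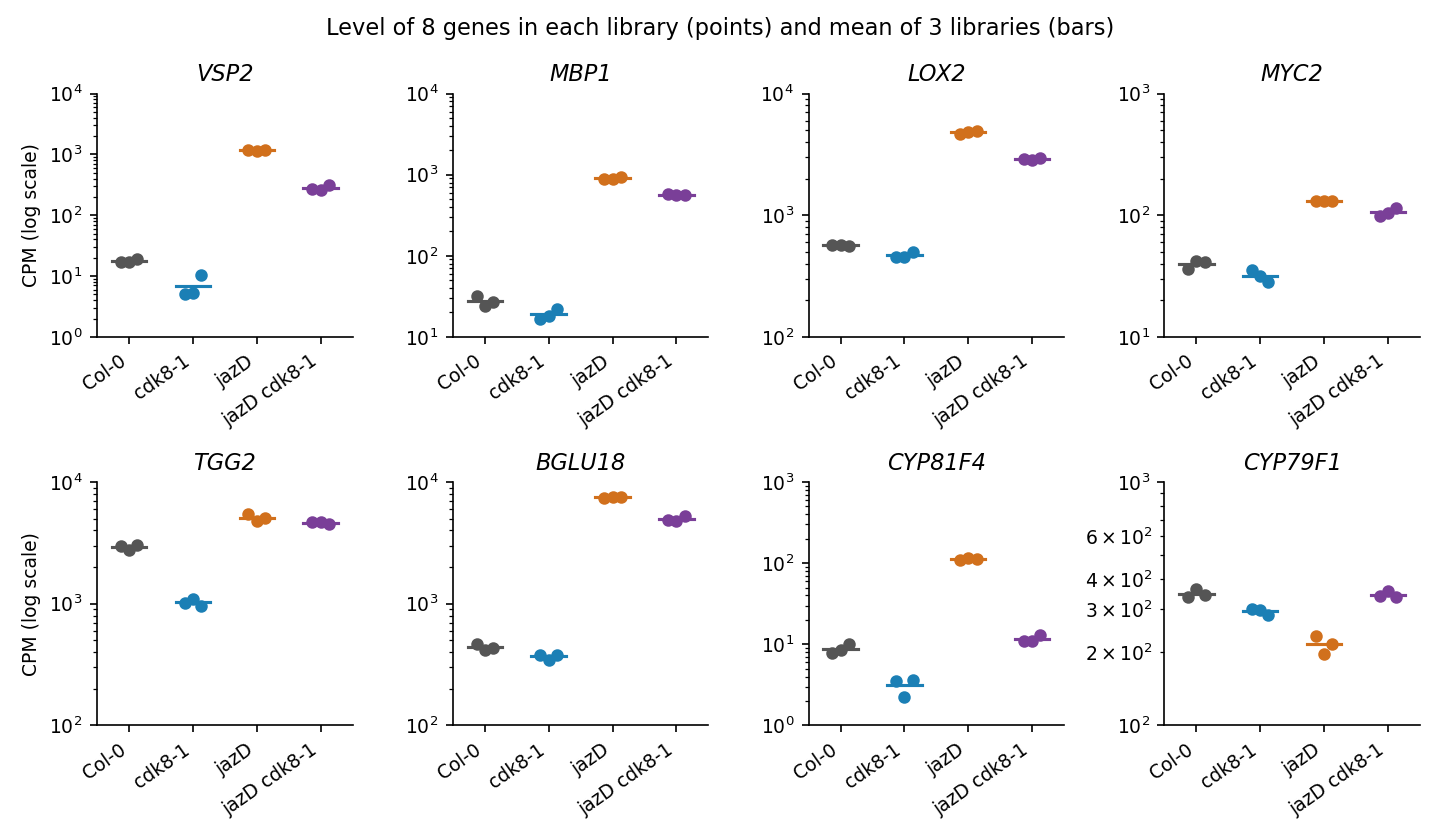
Points are the CPM of each library on a log axis and bars the mean of 3 libraries, in the 4 genotypes, for 8 genes. *VSP2*, *MBP1*, *LOX2*, *MYC2*, *TGG2* and *BGLU18* are higher in jazD cdk8-1 than in cdk8-1 without overlap, *CYP81F4* rises to 11.55 CPM against 111.9 in jazD, and *CYP79F1* is lower in jazD but not in jazD cdk8-1.

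Promoters are shown for genes that stand for the storage protein, defensin, jasmonate synthesis and indole glucosinolate groups, and for AT4G11310 and AT5G28810, which had 0 and 3 counts in cdk8-1, because factors freed from JAZ proteins bind short motifs there. Each is the 250 bases before the annotated gene start, 5′ to 3′ on the gene's strand, from the RefSeq TAIR10.1 genome. Capitals mark the G-box CACGTG, the GCC-box core GCCGCC and the E-box CACATG, each searched on both strands, so that CACATG is also read as CATGTG. The windows are chr5:8502225-8502474 (minus strand) for *VSP2*, chr5:17907639-17907888 (minus) for *PDF1.2a*, chr3:16524995-16525244 (plus) for *LOX2*, chr4:17590522-17590771 (plus) for *CYP81F4*, chr4:6883263-6883512 (plus) for AT4G11310 and chr5:10823106-10823355 (plus) for AT5G28810.
VSP2: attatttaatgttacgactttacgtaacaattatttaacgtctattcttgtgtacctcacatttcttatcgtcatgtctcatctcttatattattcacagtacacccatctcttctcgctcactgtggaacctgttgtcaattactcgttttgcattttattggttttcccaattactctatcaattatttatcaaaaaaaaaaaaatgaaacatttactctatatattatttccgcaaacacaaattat
PDF1.2a: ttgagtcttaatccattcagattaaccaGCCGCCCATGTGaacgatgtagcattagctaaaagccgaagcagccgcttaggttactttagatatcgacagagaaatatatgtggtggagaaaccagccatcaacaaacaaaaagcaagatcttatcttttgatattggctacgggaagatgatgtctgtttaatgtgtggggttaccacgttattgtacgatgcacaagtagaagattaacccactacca
LOX2: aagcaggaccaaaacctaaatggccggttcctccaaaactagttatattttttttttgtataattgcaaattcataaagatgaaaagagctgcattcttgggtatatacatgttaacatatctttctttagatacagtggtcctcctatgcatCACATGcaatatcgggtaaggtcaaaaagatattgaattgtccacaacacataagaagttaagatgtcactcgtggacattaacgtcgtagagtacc
CYP81F4: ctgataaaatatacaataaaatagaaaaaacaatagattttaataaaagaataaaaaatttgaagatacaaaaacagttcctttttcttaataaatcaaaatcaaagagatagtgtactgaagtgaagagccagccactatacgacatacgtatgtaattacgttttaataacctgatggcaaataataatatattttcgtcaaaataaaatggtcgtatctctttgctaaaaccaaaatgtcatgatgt
AT4G11310: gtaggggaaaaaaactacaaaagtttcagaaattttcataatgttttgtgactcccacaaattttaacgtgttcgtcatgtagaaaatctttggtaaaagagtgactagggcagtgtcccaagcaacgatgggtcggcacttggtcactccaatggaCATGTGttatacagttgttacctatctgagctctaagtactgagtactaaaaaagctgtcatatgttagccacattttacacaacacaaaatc
AT5G28810: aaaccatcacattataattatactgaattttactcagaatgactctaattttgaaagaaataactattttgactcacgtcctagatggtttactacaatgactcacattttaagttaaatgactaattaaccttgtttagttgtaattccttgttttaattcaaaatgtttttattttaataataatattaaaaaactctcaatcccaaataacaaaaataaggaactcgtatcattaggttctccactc
*PDF1.2a* held the GCC-box core starting 222 bases before the gene and CATGTG directly after it, *LOX2* held CACATG 97 bases before, and AT4G11310 held CATGTG 93 bases before. The other 3 windows held none of these letters. Among 18496 promoters of genes tested, 7.37% held a G-box, against 10.0% of the 2380 for genes called higher, 12.7% of the 371 for genes at least 2-fold higher, 7.72% of the 2099 for genes called lower and 12.6% of the 151 for genes at least 2-fold lower. The GCC-box core was in 1.92% of all, 3.23% of those at least 2-fold higher and 0.662% of those at least 2-fold lower. The E-box was in 11.1%, 15.9% and 13.2% in the same order. These shares are descriptions without a test, and a match is not a bound site.

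Most genes of jasmonate synthesis rose without CDK8. The 16 members tested gave 13 higher and 2 lower at a median of 0.74, where the median over all genes tested was 0.0056 (0.000683 with CDK8 and −0.00147 for the interaction). Of all genes tested, 12.7% were called higher and 11.2% lower without CDK8, and 21.8% and 20.9% with it. The interaction was called higher for 8.16% and lower for 8.39%. The counts of each list below stand beside these shares. *LOX2*, the lipoxygenase that begins the pathway in the chloroplast, measured 457, 450 and 500 CPM in cdk8-1 and 2880, 2860 and 2940 in jazD cdk8-1 (2.62 ± 0.05). *AOS*, the allene oxide synthase of the next step, measured 254, 268 and 279 CPM against 718, 744 and 737 (1.46 ± 0.04). Both genes rose in every library, and the replicates differed by far less than the groups. The allene oxide cyclases *AOC1* (2.60 ± 0.05) and *AOC2* (2.05 ± 0.05), near-identical genes whose reads depend on how the authors' tool divided them, rose as well. In the peroxisome part of the pathway *OPR3* (0.88 ± 0.05) and *OPCL1* (1.11 ± 0.06) rose, while *FAD8*, a desaturase that supplies the fatty acid precursor, fell by 0.38 ± 0.04 on the log2 scale. The other desaturase gene that fell was *FAD7* (−0.14 ± 0.04, lost without jazD cdk8-1 replicate 3 at adjusted p = 0.0679). *JAR1*, which joins jasmonate to isoleucine, was not called (−0.15 ± 0.06, adjusted p = 0.0783) and passed without Col-0 replicate 3 or jazD cdk8-1 replicate 2 (adjusted p down to 0.0437). The interaction was called lower for 9 of the 16 and higher for 0. In sum, members of the list measured 1680 to 1750 CPM in cdk8-1 and 5280 to 5400 in jazD cdk8-1, against 8010 to 8190 in jazD.

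Genes for jasmonate turnover gave 5 higher and 0 lower of 6, with a median of 0.78. *ILL6*, an amidohydrolase that releases jasmonate from its amino acid conjugates, measured 5.09, 4.45 and 5.38 CPM in cdk8-1 and 35.3, 35.1 and 33.0 in jazD cdk8-1 (2.79 ± 0.09). The rise was larger without CDK8 than with it (interaction 0.74, adjusted p = 0.000236). *ST2A*, a sulfotransferase of a hydroxylated jasmonate, rose by 1.48 ± 0.22, *IAR3* by 0.49 ± 0.07, and *CYP94C1*, which oxidises the active hormone, by 1.02 ± 0.24. The call of *JMT*, the jasmonate methyltransferase (0.45 ± 0.13), was lost without cdk8-1 replicate 3 or jazD cdk8-1 replicate 2, at up to adjusted p = 0.0754.

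Among receptors, corepressors and transcription factors, 9 of 12 were higher and 0 lower (median 0.52). *MYC2*, the main factor that JAZ proteins hold back, measured 35.4, 31.4 and 28.3 CPM in cdk8-1 and 99.1, 104 and 114 in jazD cdk8-1 (1.74 ± 0.07). With CDK8 its rise was 1.71 ± 0.07, and the difference between these, 0.02 with a standard error of 0.10, was not called (adjusted p = 0.909). *JAM1* (0.97 ± 0.07) and *JAM2* (0.72 ± 0.09), factors that compete with MYC2 at the same genes, rose, as did *NAC019* (1.83 ± 0.28). The receptor gene *COI1* (−0.01 ± 0.06, adjusted p = 0.964) and the corepressor gene *TPL* (−0.05 ± 0.05, adjusted p = 0.536) were not called. The interaction was called for 2 of the 12, *MYC4* (0.38) and *NINJA* (−0.36). The 7 Mediator subunits tested, *CDK8* itself among them, gave 0 calls in jazD cdk8-1 against cdk8-1 with edgeR, 0 at an unadjusted p under 0.05 and 0 with DESeq2. The planned cyclin C genes AT5G48640 and AT5G48630, *MED13*, *MED15* and *MED5B* had no matching name and were left out, so the list does not cover the whole kinase module.

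Anti-insect genes rose strongly. Of 18 tested, 13 were higher and 0 lower without CDK8 (median 2.24). Beside the storage proteins and lectins, *CORI3*, a cystine lyase, measured 63.6, 68.5 and 83.7 CPM in cdk8-1 and 500, 508 and 510 in jazD cdk8-1 (2.81 ± 0.07). *CLH1*, a chlorophyllase, measured 41.5, 42.5 and 43.5 CPM against 276, 272 and 277 (2.69 ± 0.05). *ARGAH2*, an arginase that removes an amino acid insects need, rose by 1.03 ± 0.04 against 2.64 with CDK8 (interaction −1.61). The groups did not overlap at any of these. Terpene synthases also rose, *TPS03* by 2.95 ± 0.24 and *TPS10* by 3.38 ± 0.35. Without cdk8-1 replicate 2, *TPS10* had 3 counts in cdk8-1 against 108, a ratio of 24.3 with a counting interval of 8.1 to 120. The interaction was called lower for 9 and higher for 1 of the 18, and for 7 and 1 without cdk8-1 replicate 3. For *VSP2* it was −0.72 (adjusted p = 0.0142) and, without that library, −0.28 (adjusted p = 0.212), and for *NATA1*, an ornithine acetyltransferase, it was −2.85 and −1.52 (adjusted p = 0.0583). For *VSP1* it was −1.38 (adjusted p = 0.00161 with edgeR). That call was lost in the limma fits on TPM with a pseudocount of 0.1 (0.0509) and with one of 1 and no filter (0.0882). For *MBP1* it was −0.12 (adjusted p = 0.542). *KTI1*, *TAT3*, *ARGAH1*, *TPS04* and *CYP82G1* were not called in jazD cdk8-1 against cdk8-1.

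Jacalin-type lectins and nitrile specifier genes that lie side by side on chromosome 3, a run chosen after its values were seen, moved alike. *NSP1* rose from 149.9 to 396.2 CPM (1.4 ± 0.05), AT3G16420 from 65.87 to 229.5 (1.80 ± 0.06), *JAL34* from 16.61 to 84.92 (2.35 ± 0.06) and *JAL35* from 57.29 to 196.9 (1.78 ± 0.06). Only *NSP4* of the 7 tested there was not called (−0.05 ± 0.11, adjusted p = 0.817). In a run of small trypsin inhibitor and defensin-like genes on chromosome 2, likewise chosen afterwards, *TI1* (0.83 ± 0.17), *TI2* (1.57 ± 0.18) and AT2G43530 (2.02 ± 0.07) rose. So did AT2G43535 (0.73 ± 0.09) and AT2G43550 (0.77 ± 0.08), while AT2G43540 was not called (0.23 ± 0.12, adjusted p = 0.186).

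The branch shared with ethylene rose without CDK8 and reached far lower levels than in jazD. Of 14 genes tested, 12 were higher and 0 lower (median 2.28), with 8 called higher by DESeq2, which gave no adjusted p for *PDF1.2a*, *PDF1.2c* and *PDF1.3*, and the summed level went from 208 to 241 CPM in cdk8-1 to 494 to 511 in jazD cdk8-1, against 8240 to 8880 in jazD. *ORA59*, the transcription factor of the branch, measured 1.1, 0.827 and 1.34 CPM in cdk8-1 and 13.9, 13.8 and 14.5 in jazD cdk8-1 (3.68 ± 0.15), with 52.72 in jazD (interaction −1.88, adjusted p = 5.77e-05). *PR4*, a chitin-binding protein, had 167, 166 and 363 counts in the cdk8-1 libraries, a mean of 11.45 CPM, against 157, 172 and 166 CPM in jazD cdk8-1 (3.84 ± 0.16), with 1746 in jazD (interaction −1.74). *CHIB*, a basic chitinase, rose from a mean of 1.59 to 4.16 CPM (1.39 ± 0.20), where Col-0 had 3.98 ± 0.17 (SD, n = 3) and jazD 54.4 (interaction −2.39). *THI2.1*, a thionin, rose by 2.34 ± 0.34 (interaction −2.42). The ethylene factor *EIN3*, which acts upstream, rose by 0.20 ± 0.05 (interaction 0.00, adjusted p = 0.986).

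The size of the change at the defensins of this branch rested on 1 library. *PDF1.2a* measured 0.249, 0.414 and 10.2 CPM in cdk8-1 and 50.6, 62.3 and 41.6 in jazD cdk8-1, with a mean of 2179 in jazD. *PDF1.3* measured 0.0499, 0.155 and 10.7 CPM against 34.3, 13.4 and 17.7, with 2800 in jazD. *PDF1.2c* measured 0, 0.31 and 4.08 CPM against 9.84, 8.04 and 4.82, with 846.5 in jazD. In each case cdk8-1 replicate 3 stood far above the other two cdk8-1 libraries and still below every jazD cdk8-1 library. The same held for *AACT1*, an acyltransferase of antifungal hydroxycinnamate amides, at 0, 0 and 2.11 CPM against 8.73, 4.64 and 5.47. Among 16420 genes compared, 6 were at least 4-fold above the other two libraries in that replicate (CPM plus 0.5), against 0 to 3 in the other 11 libraries, and 5 of the 6 were these defensins, *PDF1.2b* included, and *AACT1*.

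With that library, the change without CDK8 was 3.79 ± 0.41 for *PDF1.2a*, 2.52 ± 0.53 for *PDF1.3*, 2.30 ± 0.47 for *PDF1.2c* and 3.07 ± 0.49 for *AACT1*. The calls of *AACT1* (3.15, adjusted p = 0.107) and *PDF1.2b* (2.34, adjusted p = 0.183; 2.27 with edgeR) were lost with DESeq2. Without cdk8-1 replicate 3 the changes were 7.26 for *PDF1.2a*, 7.63 for *PDF1.3* and 5.55 for *PDF1.2c*. *AACT1* then had 0 counts in cdk8-1 and 372 in jazD cdk8-1, at least 80.8-fold higher with the same floor. The interaction, from −5.37 for *PDF1.2a* to −8.34 for *PDF1.3*, was no longer called without that library, at −1.90 (adjusted p = 0.254) for *PDF1.2a*, −3.22 (0.493) for *PDF1.3*, −4.72 (0.0576) for *PDF1.2c* and −3.16 (0.384) for *PDF1.2b*. For *AACT1* it was −6.52 with that library, and with 0 counts left in cdk8-1 no interaction could be measured without it. The fold change of these genes is therefore uncertain, while the levels in jazD cdk8-1 were below those of jazD in every library. In the whole branch the interaction was called lower for 11 of 14 genes, and without cdk8-1 replicate 3 for 7 of the 15 genes then tested, of which 12 were called higher without CDK8 (median 2.62). The *PDF1.2* copies and *PDF1.3* are near-identical, and reads can be shared among them.

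**Figure D3:**
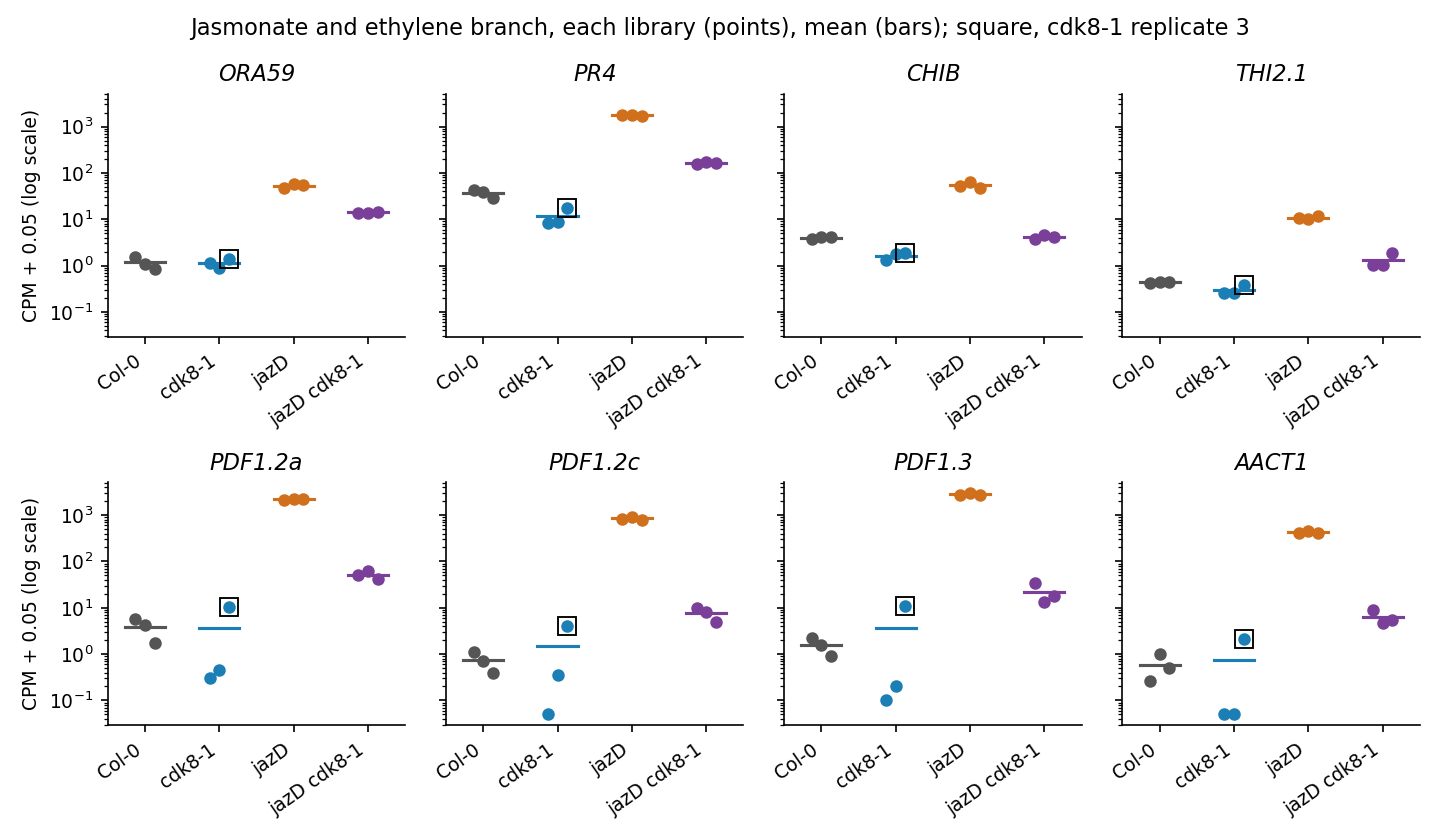
Points are CPM plus 0.05 of each library on a log axis, bars the means of 3 libraries, for 8 genes in 4 genotypes; the square marks cdk8-1 replicate 3. That library stands above the other two of its genotype at *PDF1.2a*, *PDF1.2c*, *PDF1.3* and *AACT1*, while jazD cdk8-1 lies between cdk8-1 and jazD at all 8 genes.

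Genes for indole glucosinolates, the tryptophan-derived defence compounds, were more often higher than lower. Of 18 genes tested, 11 were higher and 2 lower without CDK8 (median 0.55), against 15 and 3 with CDK8, and the interaction was called lower for 11 and higher for 2. *CYP79B3*, which converts tryptophan at the entry of the pathway, measured 49.8, 47.1 and 47.2 CPM in cdk8-1 and 88.8, 101 and 101 in jazD cdk8-1 (1.01 ± 0.06), about a doubling without overlap. *GSTF10*, a glutathione transferase of the core pathway, measured 120, 120 and 121 CPM against 237, 238 and 230 (0.97 ± 0.04, interaction −1.43). Among the genes for enzymes that modify the indole ring, *CYP81F4*, a hydroxylase, measured 3.54, 2.22 and 3.6 CPM against 10.9, 10.9 and 12.9 (1.88 ± 0.14), with 111.9 in jazD (interaction −1.78). *IGMT5*, the methyltransferase that follows, measured 3.34, 3.36 and 5.57 CPM against 17.8, 18.0 and 19.2 (2.16 ± 0.14, interaction −2.20). *CYP81F1* (0.78 ± 0.09), *CYP81F2* (1.81 ± 0.33) and *IGMT1* (1.80 ± 0.19) rose too, while *CYP81F3* (−0.15 ± 0.14, adjusted p = 0.507) and *IGMT2* (1.14 ± 0.43, adjusted p = 0.0602) were not called. *IGMT2* passed without cdk8-1 replicate 2, jazD replicate 2 or jazD replicate 3 (adjusted p down to 0.0184). *IGMT1* and *IGMT2* are close copies, and reads can be shared between them. The regulator *MYB34* was not called (0.17 ± 0.06, adjusted p = 0.0568). *SUR1*, a lyase shared by both glucosinolate pathways, fell by 0.39 ± 0.04 on the log2 scale.

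Tryptophan synthesis, which feeds that pathway, gave 6 higher and 0 lower of 10 (median 0.35), and the interaction was called lower for 7. *TSB1*, the tryptophan synthase beta subunit, measured 163, 164 and 163 CPM in cdk8-1 and 227, 222 and 226 in jazD cdk8-1 (0.46 ± 0.05) and rose by 1.74 with CDK8. *PAI2* (1.63 ± 0.08) and *PAT1* (0.84 ± 0.05), enzymes between anthranilate and tryptophan, rose as well.

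Most aliphatic glucosinolate genes were not called without CDK8 and were lower with it. Without CDK8 the 20 genes gave 5 higher, 2 lower and 13 not called (median −0.01). With CDK8 the counts were 1 higher and 16 lower (median −0.42), and the interaction was called higher for 16 and lower for 0, also without cdk8-1 replicate 3. *CYP79F1*, which starts the side chain-elongated compounds from methionine, measured 300, 297 and 285 CPM in cdk8-1 and 340, 355 and 337 in jazD cdk8-1 (0.23 ± 0.05). In jazD it was 0.69 log2 units below Col-0, and the interaction was 0.92 (adjusted p = 1.68e-08). *MAM1*, the chain elongase, measured 386, 368 and 362 CPM against 475, 478 and 459 (0.34 ± 0.05), and *GSTU20* 342, 342 and 306 against 395, 389 and 396 (0.25 ± 0.05). The 3 genes rose a little and without overlap. *MYB29*, a regulator of the pathway, was at 32.82 and 35.17 CPM (0.10 ± 0.07, adjusted p = 0.354) and fell with CDK8 (interaction 0.63). *MYB28* fell by 0.20 ± 0.05 on the log2 scale.

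Myrosinases, the enzymes that activate glucosinolates, and the genes of ER bodies, the compartments that store such enzymes, gave 12 higher and 0 lower of 14 (median 1.36). *TGG2*, a myrosinase, measured 1020, 1090 and 966 CPM in cdk8-1 and 4710, 4660 and 4550 in jazD cdk8-1 (2.18 ± 0.06). With CDK8 it rose by 0.80, and the interaction was 1.38 (adjusted p = 6.99e-11). The means of jazD cdk8-1 and jazD, 4637 and 5089 CPM, lay closer than those of cdk8-1 and Col-0, 1025 and 2922. *TGG1*, the other leaf myrosinase, rose by 1.01 ± 0.05 against 0.58 with CDK8 (interaction 0.43). *BGLU18*, the main glucosidase of ER bodies that jasmonate induces, measured 380, 348 and 382 CPM against 4860, 4790 and 5300 (3.75 ± 0.06). *NAI2*, a structural protein of ER bodies, measured 19.5, 19.8 and 19.4 CPM against 79.3, 80.7 and 80.1 (2.03 ± 0.07, interaction −1.65), and *MEB1*, a membrane protein, rose by 2.70 ± 0.09. The groups did not overlap at any of these. The interaction of this list was called lower for 7 and higher for 2 of 14, the 2 being *TGG1* and *TGG2*.

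More genes of sulfate assimilation fell than rose. Of 11 tested, 6 were lower and 2 higher without CDK8 (median −0.75), against 3 and 2 with CDK8 (median −0.07). *APR2*, an adenosine phosphosulfate reductase that sets the flux of the pathway, measured 145, 143 and 134 CPM in cdk8-1 and 84.4, 85.5 and 82.0 in jazD cdk8-1 (−0.75 ± 0.05). *APR1* measured 59.7, 59.0 and 53.6 CPM against 30.0, 33.2 and 30.1 (−0.88 ± 0.06). *APR3* measured 48.3, 47.9 and 43.1 CPM against 35.3, 32.4 and 37.3 (−0.41 ± 0.07). All 3 reductases fell without overlap, and *APR3* rose by 1.56 with CDK8 (interaction −1.97, adjusted p = 9.93e-12). *LSU2*, which sulfur shortage induces, measured 6.24, 7.34 and 4.85 CPM against 2.61, 2.58 and 2.55 (−1.25 ± 0.16) and was not called with CDK8 (−0.07, interaction −1.17). AT1G04770, a tetratricopeptide repeat gene, is not counted in this list and is named for its opposite changes. It fell without CDK8 (−0.89 ± 0.13) and rose with it (0.46, lost without Col-0 replicate 1 at adjusted p = 0.064).

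The flavonoid list was mixed. Of 20 genes, 10 were higher and 3 lower without CDK8 (median 0.25), and the interaction was called lower for 11 and higher for 1. *DFR*, dihydroflavonol reductase, measured 18.7, 13.3 and 14.1 CPM in cdk8-1 and 40.8, 43.5 and 39.9 in jazD cdk8-1 (1.43 ± 0.09). *LDOX* rose by 1.3 ± 0.09 and *TT19*, a glutathione transferase needed to move the pigment, by 1.36 ± 0.09. *PAP1*, a regulator of anthocyanin synthesis, measured 2.69, 3.1 and 3.27 CPM against 10.6, 11.5 and 11.1 (1.87 ± 0.13). The others that rose were *UGT79B1* (1.48 ± 0.14), *TT8* (1.37 ± 0.26), *GL3* (0.81 ± 0.26), *TT7* (0.36 ± 0.10), *UGT78D1* (0.33 ± 0.07) and *MYB113*, at 0 CPM in cdk8-1 and 0.331 in jazD cdk8-1. *F3H* (−0.45 ± 0.07), *FLS1*, the flavonol synthase (−0.54 ± 0.06), and *MYB111*, a flavonol regulator (−0.50 ± 0.15), fell. *TT5*, *UGT78D2*, *MYB12*, *MYBL2*, *EGL3* and *TTG1* were not called. The calls were lost without any 1 of cdk8-1 replicates 1 and 2 and jazD cdk8-1 replicates 2 and 3 for *GL3* (adjusted p up to 0.171), of cdk8-1 replicate 3 and jazD cdk8-1 replicate 2 for *TT7* (0.0733), and of cdk8-1 replicate 1 and jazD cdk8-1 replicates 1 and 2 for *MYB111* (0.0742). *CHS*, chalcone synthase, missed the threshold (−0.14 ± 0.05, adjusted p = 0.0536) and passed it without any 1 of Col-0 replicates 1 and 3, cdk8-1 replicate 3, jazD replicates 1 and 2 or jazD cdk8-1 replicate 1. With CDK8 *CHS* rose by 1.09 (interaction −1.23). The interaction of *PAP1*, 0.66, was lost without any 1 of 6 libraries (Col-0 replicate 1, cdk8-1 replicate 1, jazD replicates 2 and 3, jazD cdk8-1 replicates 2 and 3) at up to adjusted p = 0.131.

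Phenylpropanoid and lignin genes gave 2 higher and 7 lower of 16 (median −0.14). *HCT*, a hydroxycinnamoyltransferase of lignin synthesis, measured 240, 238 and 231 CPM in cdk8-1 and 182, 175 and 171 in jazD cdk8-1 (−0.43 ± 0.04), and *PAL1* measured 185, 172 and 166 against 137, 147 and 140 (−0.30 ± 0.05). Of the 2 that were higher, *AACT1*, a call lost with DESeq2, is described with the defensins and *COMT1* rose by 0.13 ± 0.04, a call lost without any 1 of 4 libraries (cdk8-1 replicates 1 and 3, jazD cdk8-1 replicates 1 and 2) at up to adjusted p = 0.10. In the camalexin list 3 of 5 were higher, *GSTF6* from 24.9, 23.7 and 27.5 to 95.3, 87.6 and 107 CPM (1.93 ± 0.14), *WRKY33* by 0.80 ± 0.14 and *CYP71A12* by 1.34 ± 0.27. *PAD3*, the last enzyme of camalexin synthesis, missed the threshold (log2 change 1.4, adjusted p = 0.128). It passed in the fit of the 6 libraries without CDK8 alone (1.39, adjusted p = 0.024), with no filter on low counts (0.0149) and without jazD replicate 2 (0.0125).

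Salicylate defence, the branch that often opposes jasmonate, had 2 higher and 0 lower of 17 (median 0.02), and with CDK8 7 higher and 2 lower (median 0.29). Of all genes tested, 12.7% were higher and 11.2% lower without CDK8, and 21.8% and 20.9% with it. Without CDK8 the number of higher members was thus near the share of all genes. Among the jazD libraries replicate 2 stood apart in the summed level of this list, at 576 CPM against 366 and 372, and in that of the camalexin list, at 519 against 326 and 330. Without it, a setting chosen after the data were seen, the salicylate list with CDK8 had 7 higher and 4 lower (median −0.05), and the interaction went from 0 higher and 2 lower to 2 higher and 1 lower. The camalexin list kept 5 of 5 higher with CDK8 (median 2.13, and 1.78 without that library). *EDS5*, the salicylate transporter, measured 2.0, 2.48 and 3.41 CPM in cdk8-1 and 5.12, 4.54 and 5.42 in jazD cdk8-1 (0.93 ± 0.20). *SAG101* rose by 0.24 ± 0.08, a call lost without any 1 of 8 libraries (Col-0 replicates 1 and 3, cdk8-1 replicates 1 and 2, jazD replicate 1, every jazD cdk8-1 replicate) at up to adjusted p = 0.163. The marker *PR1* was not called (−0.17 ± 0.61, adjusted p = 0.882), and neither was *PR5* (−0.21 ± 0.20, adjusted p = 0.52), which rose by 1.95 with CDK8 (interaction −2.15).

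**Figure D4:**
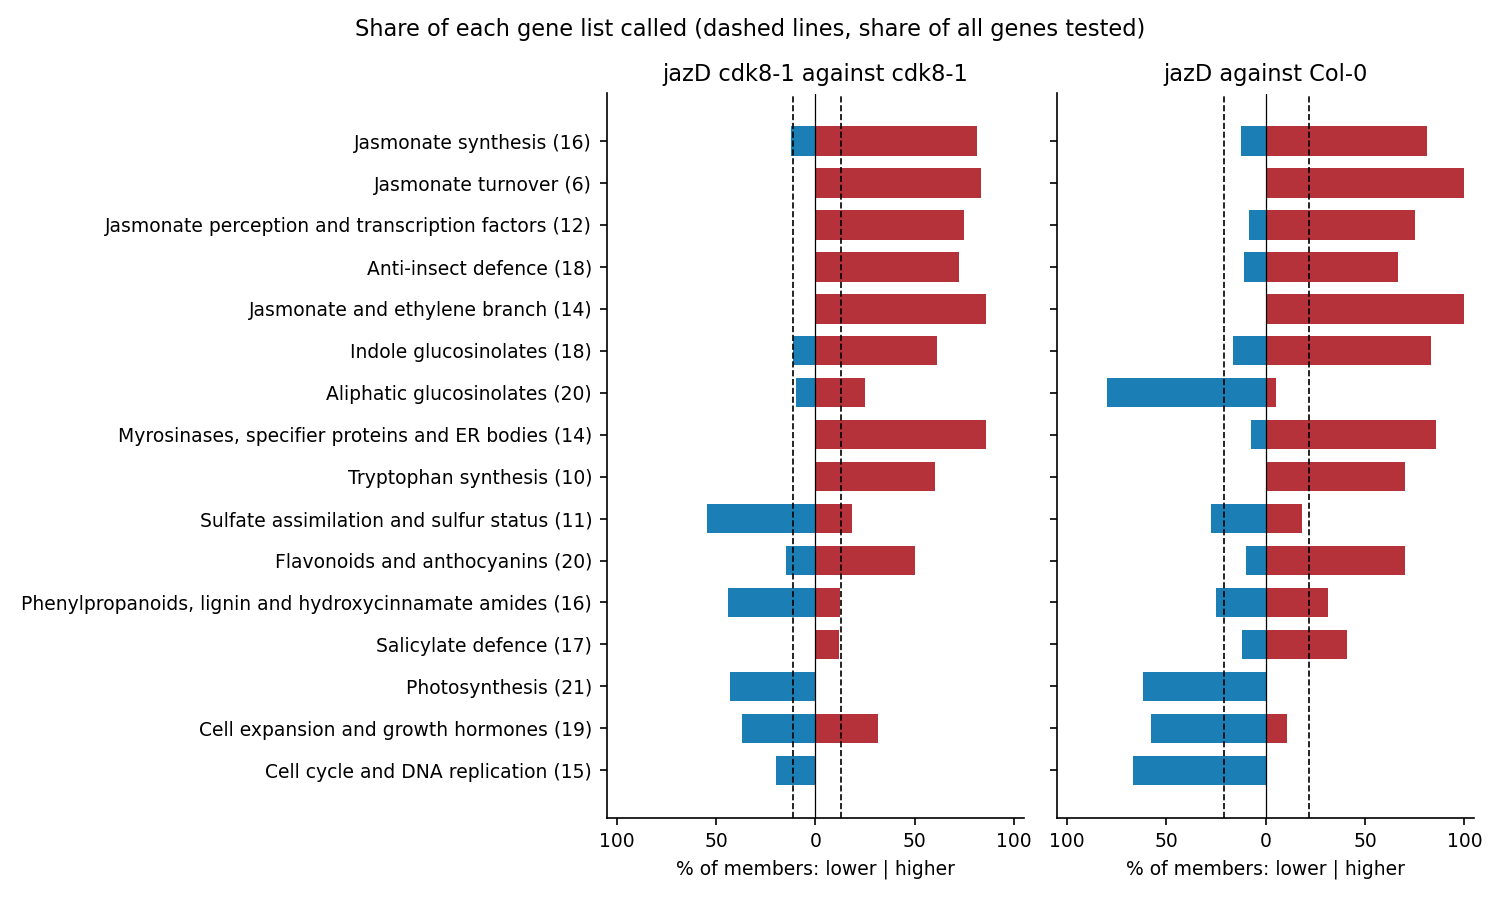
Bars give the percent of tested members of 16 gene lists (number tested in brackets) called higher, to the right, or lower, to the left, without CDK8 in the left panel and with CDK8 in the right panel; dashed lines are the shares over all genes, 12.7% and 11.2% on the left and 21.8% and 20.9% on the right. Jasmonate, anti-insect and myrosinase lists are called higher in both panels, while aliphatic glucosinolates are mostly lower on the right panel alone and sulfate assimilation is lower in most members on the left.

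Photosynthesis genes fell slightly or were not called. Of 21, 9 were lower and 0 higher without CDK8 (median −0.06), against 13 lower with CDK8 (median −0.15), and the interaction was called higher for 4 (13 with TPM and a pseudocount of 1). Those lower were the genes of carbon fixation, such as *RBCS1B*, a small subunit of Rubisco, at 7080, 7820 and 6870 CPM in cdk8-1 and 5730, 5550 and 4980 in jazD cdk8-1 (−0.42 ± 0.06), and *PRK* (−0.23 ± 0.04). *RCA*, Rubisco activase, fell by 0.22 ± 0.05 on the log2 scale against 0.71 with CDK8 (interaction 0.49). Of the 10 light-harvesting genes tested, edgeR called 0, and 1 had an unadjusted p under 0.05. *PORA*, a protochlorophyllide oxidoreductase, was among the 10 largest falls, at 34.3, 40.7 and 47.8 CPM against 12.8, 12.7 and 13.1 (−1.67 ± 0.12).

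Genes of cell expansion and growth hormones were mixed, with 6 of 19 higher and 7 lower (median 0.06), where with CDK8 2 were higher and 11 lower (median −0.18). The interaction was called higher for 9 and lower for 0. *EXPA11*, an expansin that loosens cell walls, measured 35.9, 39.6 and 38.0 CPM in cdk8-1 and 22.4, 21.2 and 20.0 in jazD cdk8-1 (−0.84 ± 0.07), and *EXPA8* 89.6, 99.8 and 95.2 against 63.2, 64.4 and 57.0 (−0.63 ± 0.06). Both fell by less than with CDK8 (interactions 0.68 and 0.52). *GA3OX1*, which makes active gibberellin, fell by 0.87 ± 0.12 on the log2 scale. *RGL3*, a gibberellin-signal repressor that binds JAZ proteins, measured 0.599, 0.724 and 0.672 CPM against 3.95, 3.3 and 3.52 (2.42 ± 0.20). *PRE1*, a growth-promoting factor, was not called without CDK8 (0.07 ± 0.11, adjusted p = 0.701) and fell with it (−1.68, interaction 1.75). *ATHB2*, a shade-response factor, gave a like pattern (0.08 ± 0.09, adjusted p = 0.583, interaction 0.81).

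Of 15 genes of the cell cycle and DNA replication 3 were lower and 0 higher (median −0.12), against 10 lower with CDK8. The share of all genes called lower was 11.2% without CDK8 and 20.9% with it. *PCNA1*, the replication clamp, measured 18.6, 18.2 and 18.0 CPM in cdk8-1 and 12.6, 13.8 and 12.7 in jazD cdk8-1 (−0.48 ± 0.07). *MCM4* fell by 0.33 ± 0.07 on the log2 scale, and the fall of *MCM5* (0.31) was lost without cdk8-1 replicate 1 (adjusted p = 0.092) or jazD cdk8-1 replicate 1 (0.064). Genes of senescence and chlorophyll breakdown gave 7 higher and 0 lower of 11 (median 0.38), among them *PPH*, which removes the side chain of chlorophyll, at 37.5, 38.5 and 40.2 CPM against 58.6, 56.3 and 59.4 (0.59 ± 0.05), and *NYC1* (0.28 ± 0.05).

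The clock list changed in most of its members, with 6 higher and 4 lower of 11. The morning genes *CCA1* and *LHY* were lower. *CCA1* measured 41.9, 40.3 and 40.2 CPM in cdk8-1 and 18.4, 18.0 and 17.0 in jazD cdk8-1 (−1.20 ± 0.07), and *LHY* 29.6, 24.0 and 27.0 against 8.01, 8.94 and 11 (−1.52 ± 0.11). The evening genes *LUX*, at 7.66 ± 0.459 against 17.11 ± 0.623 CPM (SD, n = 3; a change of 1.16 ± 0.09), and *TOC1* (0.54 ± 0.07) were higher. With CDK8 the log2 change was −1.58 for *CCA1* and 1.57 for *LUX*. The hour at which each genotype was harvested is not given in the sources used here, and its part in these values was not tested.

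Of the remaining lists, flowering time gave 2 higher of 6, the repressors *FLC* (0.93 ± 0.21) and *MAF5* (0.55 ± 0.15, lost without cdk8-1 replicate 3 at adjusted p = 0.0608). Touch and cold genes gave 1 higher of 9, *TCH3* (0.66 ± 0.14), and heat shock genes 0 of 2 with edgeR, at an unadjusted p under 0.05 and with DESeq2. The share of all genes called higher was 12.7%, and the touch and cold count lay near it. Of the floral markers only *AG* passed the filter on low counts, at 0.66 CPM in jazD cdk8-1 and 0.35 in cdk8-1 (adjusted p = 0.144). Of the root markers only *NRT2.1* did, at 1.11 and 0.50 CPM (1.16 ± 0.37, adjusted p = 0.0261), a call lost without cdk8-1 replicate 1 or 3 or jazD cdk8-1 replicate 2 or 3 at up to adjusted p = 0.102. Of 4 reference genes, *GAPC2* fell by 0.35 ± 0.05 on the log2 scale, *UBQ10* rose by 0.17 ± 0.05 (lost without cdk8-1 replicate 3 at adjusted p = 0.109 or jazD cdk8-1 replicate 2 at 0.0817), and *ACT2* and *PP2AA3* were not called.

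The largest falls without CDK8 took in, beside *JAZ6*, *JAZ2* and *JAZ5*, genes of several annotations. AT4G12917, annotated as other RNA, had 343 counts in cdk8-1 and 0 in jazD cdk8-1, at least 115-fold lower, and 0 in jazD too. *TRM24* measured 13.4, 9.92 and 11.6 CPM in cdk8-1 and 0.667, 0.526 and 0.232 in jazD cdk8-1 (−4.63 ± 0.23). AT5G52420 measured 40.3, 43.1 and 40.3 CPM against 7.68, 8.23 and 8.85 (−2.32 ± 0.08). *GolS3*, a galactinol synthase that cold induces, measured 9.78, 10.6 and 10.4 CPM against 2.45, 2.01 and 2.36 (−2.18 ± 0.17). AT2G27420, a cysteine protease, fell by 1.63 ± 0.16 on the log2 scale.

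Position on the chromosome moved with part of these values. Of the 10 largest falls, *TRM24*, AT5G52420, *PORA* and AT5G44580 lie in a stretch of chromosome 5 that was seen in earlier results of these data. The stretch runs from AT5G44490 to AT5G56910, its counts are a description, and 926 genes were tested in it. Without CDK8, 248 of them were called (26.8%), against 23.8% of the other genes, and the interaction was called for 268 (28.9%) against 15.9%. Of the list genes, 14 are counted in the stretch, among them *TSB1*, *HCT*, *COMT1*, *UGT79B1* and *MYB111*. The part of the stretch in the changes given for them above was not tested. Of the 53 genes whose interaction was at least 8-fold, 22 lie there. The 5 most positive fitted interactions were all among them, at genes with 0 to 6 counts in the jazD libraries together. AT5G49440 measured 121, 129 and 115 CPM in cdk8-1 and 106, 92.4 and 92.3 in jazD cdk8-1 (−0.33 ± 0.07), with 82.04 in Col-0 and 0.118 in jazD. AT5G45490 measured 40.5, 45.6 and 41.7 CPM against 55.5, 55.2 and 58.4 (0.40 ± 0.08), with 66.09 in Col-0 and 0.0987 in jazD. AT5G50565, AT5G49640 and AT5G51630 were not called without CDK8, and had 496, 429 and 350 counts in Col-0 and 0, 1 and 1 in jazD. With 3 counts as the floor, the interaction of AT5G50565 was at least 7.10 on the log2 scale. All 5 kept the level of the cdk8-1 line in jazD cdk8-1 to within 2-fold. *FUM2*, a cytosolic fumarase in the same stretch, measured 133, 131 and 132 CPM against 252, 259 and 261 (0.96 ± 0.04), while with CDK8 it fell from 238.6 to 33.92 CPM (−2.82). The chromosomal origin of the stretch in each line was not tested.

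Called changes in opposite directions were seen for 159 genes, 93 of them higher without CDK8 and lower with it, and the interaction was called for all 159. Of the 5 largest such changes at higher abundance, 3 are neighbours on chromosome 2. AT2G02780, a receptor-like kinase, measured 16.5, 14.4 and 17.2 CPM in cdk8-1 and 32.0, 32.1 and 30.0 in jazD cdk8-1 (0.96 ± 0.09). With CDK8 its change was −0.34, a call lost without Col-0 replicate 2 (adjusted p = 0.0537). *IQD29*, a calmodulin-binding protein, measured 15.3, 14.2 and 14.4 CPM against 29.0, 27.0 and 28.5 (0.94 ± 0.07), and its fall with CDK8 (−0.23) was lost without Col-0 replicate 2, jazD replicate 1 or jazD replicate 2, at up to adjusted p = 0.141. *MYB88*, a factor of stomatal cell division, had a mean of 17.31 CPM in cdk8-1, with an SD of 0.241 (n = 3), against 28.8, 31.5 and 27.3 in jazD cdk8-1 (0.75 ± 0.07). *APK2B* (0.81 ± 0.06) and *UTR1* (1.41 ± 0.11), which lie between them and were chosen for that after their values were seen, rose as well. The tested genes on either side, AT2G02770 (0.50 ± 0.20, adjusted p = 0.0687) and *ARPN* (−0.47 ± 0.19, adjusted p = 0.0777), were not called. With CDK8 *APK2B* and *UTR1* did not fall. The change was 0.13 ± 0.07 for *APK2B* (interaction 0.68) and 1.01 ± 0.11 for *UTR1* (interaction 0.40, not called, adjusted p = 0.0897).

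**Figure D5:**
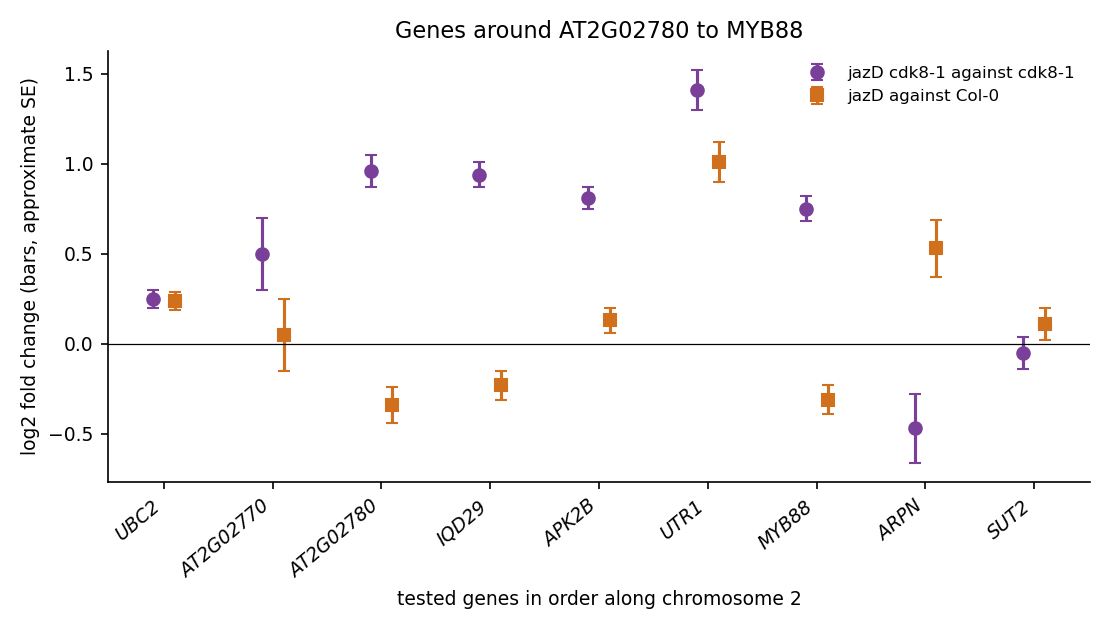
Log2 fold changes ± approximate standard error of 9 tested genes in their order along chromosome 2, circles without CDK8 and squares with CDK8. The 5 genes from AT2G02780 to *MYB88* lie between 0.75 and 1.41 without CDK8, above the genes on either side.

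Some genes passed the test without CDK8 and missed it with CDK8. AT3G57880, chosen after its values were seen, had a mean of 3.81 CPM in cdk8-1 and 22.16 in jazD cdk8-1 (log2 fold change 2.54, adjusted p = 2.87e-14), with 18.9 in Col-0 and 17.29 in jazD (−0.13, adjusted p = 0.222), and its interaction was 2.67 (adjusted p = 6.44e-12). The low level was that of cdk8-1, and the other 3 genotypes lay between 17.29 and 22.16 CPM. It is 1 of 6 genes that were at least 2-fold higher without CDK8, not called with it and called in the interaction. For genes at least 2-fold lower without CDK8 the like number was 17. In reverse, 134 genes at least 2-fold higher and 101 at least 2-fold lower with CDK8 were not called without it and were called in the interaction.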

How the data were processed

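The authors deposited, per gene and library, expected counts and TPM values (counts scaled for transcript length and library size). Both came from RSEM 1.2.25 on TAIR10, per the submitters' processing notes, and the strand protocol is not given in the sources used here. The expected counts were rounded to whole numbers (96.58% already were) and 9004 loci at 0 in every library carry no value. R 4.3.3 with edgeR 4.0.16 filtered low counts (19059 loci left), scaled by TMM and fitted 4 genotype means to 12 libraries with 8 residual degrees of freedom. The approximate standard error is the log2 change over the square root of F and can fall below counting error for low counts. DESeq2 1.42.0 and limma 3.58.1 on log2(TPM + pseudocount) were alternatives. Same-numbered libraries did not deviate together (r from −0.058 to 0.051) and were not paired. Nothing says that the pools came from separate experiments, so p-values measure the spread between pools.

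The genes, lists (28 lists, 315 of 350 members tested) and rules were chosen with earlier results of these data known. Of 370 genes planned for the lists, these 350 had a matching name and the rest were left out. Named genes are the JAZ genes and CDK8, the 10 largest rises and falls, the 5 most positive and negative interactions, up to 4 members per list by adjusted p and 5 opposite changes. Further list members, runs of neighbours and AT3G57880 were named after their values were seen. Promoter windows were cut from the TAIR10.1 genome, since the deposited tables hold no coordinates. The fit was tested on simulated counts.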

Additional observations from a re-analysis of the deposited data

Results flagged for a closer look

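The interaction, the change in jazD cdk8-1 against cdk8-1 minus that in jazD against Col-0, was called by edgeR at the genes below, as log2 values. Among positive values, AT5G50565 had 10.19, AT5G45490 9.83, AT5G49440 9.16, AT5G49640 8.34 and AT5G51630 7.95, all in 1 stretch of chromosome 5. These 5 genes had 0, 5, 6, 1 and 1 counts in jazD in the same order, so the values are fitted and depend on the handling of low counts. For AT5G50565, with 0 counts, the count floor gives an interaction of at least 7.10. *FUM2*, in the same stretch and at 33.92 CPM in jazD, had 3.78. On chromosome 2, AT2G02780 had 1.3, *IQD29* 1.18 and *MYB88* 1.06, with a rise without CDK8 and a fall with it. *AG*, a floral organ gene below 1 CPM in every genotype, had 2.35.

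Negative values were found at *PDF1.3* (−8.34), *PDF1.2c* (−7.98), *PDF1.2b* (−7.14), *AACT1* (−6.52) and *PDF1.2a* (−5.37), where cdk8-1 replicate 3 decides the size. *DIN11*, a dioxygenase gene, had −5.60, and −4.91 without that library. *JAZ8* had −2.75, *IGMT5* −2.20 and AT1G04770 −1.35. Groups of 3 were not tested for single outlying libraries, and the part of the chromosome stretch or of cdk8-1 replicate 3 in other values was not tested.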

How the results depend on the processing

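A call that also required a change of at least 2-fold left 545 genes in jazD cdk8-1 against cdk8-1, 1252 in jazD against Col-0 and 453 in the interaction, by construction. The number of genes at least 8-fold changed without CDK8, counted by chromosome, was 69 on counts and 29 on TPM with a pseudocount of 1, with or without the filter; a pseudocount shrinks low genes. The share of promoters with a G-box among genes called higher was 10.0% in 250 bases, 12.4% with 50 bases more after the start, 13% in 500 and 19.5% in 1000, as longer windows hold more letters. Without single libraries the calls ranged from 3540 to 4704 without CDK8, from 7105 to 8353 with it, and from 2475 to 3036 in the interaction. In the same way the overlap of calls in jazD cdk8-1 against cdk8-1 and jazD against Col-0 ranged from 2571 to 3022, list members called from 164 to 189, and 8-fold changes from 67 to 77. The fitted interaction of *AACT1* ranged from −7.22 to 0.32. The upper value, without cdk8-1 replicate 3, is a fit over 0 counts in cdk8-1 and gives neither a size nor a sign. The interaction of *RGL3*, 0.04 on counts, was −0.50 on TPM with a pseudocount of 1 (adjusted p = 0.0302 by limma; 0.0347 with no filter), and the cause was not tested.

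With the replicate number as a block, calls numbered 4397 in jazD cdk8-1 against cdk8-1, 7934 in jazD against Col-0 and 3021 in the interaction, with 3005 in the overlap of calls, 182 list members and 68 genes at least 8-fold changed. The pairing check gave no ground for the block.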
